A study of Homo sapiens with 10 samples.

Results

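H3K27ac was measured at the regions assigned to RUNX1, RUNX2, RUNX3 and CBFB, the genes of the RUNX transcription factors and of their shared partner subunit. The members were every row of the annotated count table whose gene symbol was one of these 4, which gave 58 of 67387 annotated regions, out of 169637 regions counted in all. RUNX1 had 34 of them on chromosome 21, RUNX2 had 14 on chromosome 6, RUNX3 had 7 on chromosome 1 and CBFB had 3 on chromosome 16 (hg38). A region within 1000 bp of an annotated transcription start site was called a promoter region (13 of 58) and every other one a distal region (45 of 58); RUNX3 had distal regions only. All 58 passed the filter on low counts.

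The libraries were made by chromatin immunoprecipitation with an antibody against acetylated lysine 27 of histone H3, a mark of active promoters and enhancers, in H1975, an established lung adenocarcinoma cell line with mutant EGFR. The DMSO group had 21 days in medium without drug and then 3 days in DMSO, the solvent. The osimertinib DTP group, drug-tolerant persister cells, had 24 days in 500 nM osimertinib, an inhibitor of EGFR. The osimertinib DTP + AZD5153 group, below the combination group, had 21 days in 500 nM osimertinib and then 3 days in 150 nM AZD5153, an inhibitor of the BET bromodomain proteins that bind acetylated histones. Whether osimertinib was kept during those last 3 days is not given in the sources used here, so a change against the osimertinib DTP group cannot be told apart from removal of that drug. Each group had 3 libraries, given as biological triplicates, and 1 pooled input served all. All cells came from a single line.

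The 9 libraries held between 6263443 counts (combination library 3) and 10463351 counts in the 169637 regions. Annotated promoter regions took 29.3% to 34.8% of the counts in all 169637 regions in 7 libraries. They took 50.8% in osimertinib DTP library 2 and 52.9% in combination library 3. Spearman correlations over regions between libraries of a group ran from 0.80 to 0.89, except that combination library 3 reached only 0.45 and 0.37 with the other two of its group. Many of the results that rest on these libraries are therefore given with and without them. Promoter regions were present for 6 of 6 epithelial keratin and adhesion genes, 3 of 4 lung lineage genes and 0 of 5 blood genes. They were present for 3 of 4 fibroblast genes, whose summed promoter signal was 19.9 to 47.3 CPM (counts scaled to a common library depth) in DMSO, 85.4 to 103.5 in osimertinib DTP, then 70.1 to 195.9 in the combination; 1 of these 3 promoter sums was called higher in each treated group. Of the 6 epithelial distal sums, 1 was called lower in osimertinib DTP and 2 in the combination, with medians of −0.60 and −0.97 on the log2 scale. They were KRT19, a keratin, by −1.03 (adjusted p = 0.0366) and −1.40 (adjusted p = 0.00787), and CDH1, E-cadherin, by −1.77 in the combination (adjusted p = 0.0234). The promoter of SFTPB, a surfactant protein, changed by −2.14 there (adjusted p = 0.0195), the 1 of 3 lung lineage promoters that was called. Distal sums of KRT18 (0.875 and 0.976) and KRT7 (0.288 and 0.21) were higher but not called. Nor were the promoters of NKX2-1 (1.056 and 1.236) and FOXA2 (−2.675 and −2.058). Without combination library 3, epithelial distal calls were 0 higher and 3 lower in osimertinib DTP, then 1 higher and 2 lower in the combination. Lung lineage promoter calls were then 1 higher and 1 lower, and 0 higher and 2 lower. The part of these marker changes in the results was not tested.

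RUNX proteins bind DNA through the Runt domain and recruit co-activators or co-repressors, so the same protein can raise one gene and lower another. CBFB does not touch DNA itself but holds the Runt domain in its binding form and protects RUNX proteins from degradation. RUNX1 is best known for blood development, RUNX2 for bone and cartilage, and RUNX3 for T cells, sensory neurons and, in epithelium, for its loss in several cancers. Each RUNX gene has a distal promoter, P1, and a proximal promoter, P2, that give proteins with different first residues.

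The RefSeq promoter table (GRCh38.p14, 250 bases before to 50 bases after a start) held 5 windows for the RUNX genes. The core letters that RUNX proteins recognise, TGTGGT and TGCGGT, were searched on both strands (ACCACA and ACCGCA on the other). At least 1 of them occurred in 19.6% of the 35116 windows in the table, at least 3 in 0.256%, and at least 5 in 0.0114%, which was 4 windows. The P1 window of RUNX2, at chr6:45328080-45328379 on the plus strand, was one of those 4. It held 5 matches, at positions −191, −87, 17, 25 and 33 counted from the start site. It is shown for this density, and because 2 counted regions overlapped it. The matches are in capitals in the 250 bases before the start and in the 30 bases that begin at position 15:
RUNX2 P1 upstream: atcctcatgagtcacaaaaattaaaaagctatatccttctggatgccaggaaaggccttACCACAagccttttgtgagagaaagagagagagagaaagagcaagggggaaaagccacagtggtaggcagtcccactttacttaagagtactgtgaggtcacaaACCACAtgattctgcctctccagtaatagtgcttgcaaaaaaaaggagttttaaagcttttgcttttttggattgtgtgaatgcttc
RUNX2 P1 transcribed: caACCACAgaACCACAagTGCGGTgcaaac
The P1 window of RUNX3, at chr1:24964961-24965260 on the minus strand, held 2 matches, at −131 and −123. It is shown because it carries the same tandem pair as RUNX2 P1 although no counted region lay on it:
RUNX3 P1 upstream: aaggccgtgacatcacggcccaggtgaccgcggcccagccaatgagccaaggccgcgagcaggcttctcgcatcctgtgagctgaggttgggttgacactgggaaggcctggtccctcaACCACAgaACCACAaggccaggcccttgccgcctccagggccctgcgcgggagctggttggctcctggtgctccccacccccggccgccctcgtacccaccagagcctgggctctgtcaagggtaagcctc
The tandem was looked up after these sequences had been read. It occurred in 3 of the 35116 windows, those of RUNX2 P1, RUNX3 P1 and the olfactory receptor gene OR52N2. The windows at RUNX1 P2 (chr21:34888650-34888949, minus strand), RUNX2 P2 (chr6:45422025-45422324, plus strand) and RUNX3 P2 (chr1:24930227-24930526, minus strand) held 0 matches. They were 72%, 76% and 76% G and C, against 42.7% in RUNX2 P1 and 66.3% in RUNX3 P1.

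Against DMSO, the calls among the 58 regions were falls, all at distal regions of RUNX3 and RUNX1. A region was called where edgeR's quasi-likelihood test gave an adjusted p (Benjamini-Hochberg over the 157919 regions tested) under 0.05. In osimertinib DTP 3 of 58 regions fell and 0 rose, where 5.13% of all regions tested were called lower and 5.58% higher. In the combination 9 of 58 fell and 0 rose, beside 9.01% lower and 9.05% higher over all regions. Among annotated regions farther than 1000 bp from a start, 10.3% were called lower in osimertinib DTP and 15.6% in the combination, so the shares of the 45 distal members, 3 and 9 of 45, were near that background for the 4 genes together. Without combination library 3 the counts were 15 lower in osimertinib DTP (12.7% of all regions) and, in the combination, 11 lower (17.3%) and 2 higher (18.4%). Both comparisons share the DMSO libraries. The authors' peak lists covered 44, 45 and 45 of the 45 distal members in DMSO. They covered 29, 28 and 32 in osimertinib DTP, then 37, 37 and 19 in the combination. The distal members were thus almost all regions with a peak in DMSO. Regions that the annotated table left out held called rises, given in a later section. Whether the choice of annotated regions shaped the direction of the calls was not tested.

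The 13 promoter regions held no call in any of the 3 comparisons. Their median log2 fold change was 0.26 in osimertinib DTP and 0.80 in the combination, and that of the 45 distal regions was −0.70 and −0.64. Over all annotated promoter regions the median was 0.35 and 0.42, so that of the members was lower in osimertinib DTP and higher in the combination. Over all annotated distal regions it was −0.04 and 0.03, above that of the members in both. The median over all regions tested was 0.15 and 0.23. Those overall medians moved to 0.06 and −0.02 with plain library sizes and to 0.10 and 0.35 with a loess correction. Without combination library 3 the promoter median in the combination was 0.30 and the distal one −0.22. Over all annotated promoter and distal regions these were then 0 and 0.12.

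**Figure D1:**
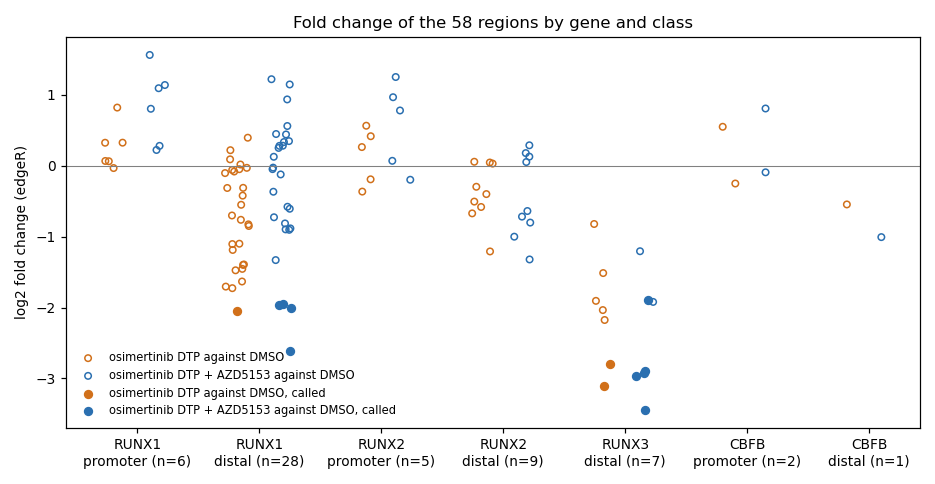
Fitted log2 fold changes against DMSO (vertical axis) of the 58 regions, by gene and region class; open points were not called and filled points had an adjusted p under 0.05. The filled points lie at distal regions of RUNX1 and RUNX3, and all 7 RUNX3 regions lie below 0 in both comparisons.

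RUNX3 showed the largest falls. Its 7 regions lie in 2 intronic groups between chr1:24947474 and chr1:24955845, 9139 to 17009 bp downstream of the assigned start, between the P1 and P2 windows shown above. No counted region lay on either promoter window. The nearest of the 7 ended 9116 bp from P1, and that nearest to P2 lay 16948 bp away. At the region from 24954695 to 24955196, the 3 DMSO libraries had 66, 84 and 60 counts (5.99, 8.68 and 6.03 CPM). The osimertinib DTP libraries had 12, 5 and 5 counts (1.15, 0.696 and 0.504 CPM), and the combination libraries 4, 5 and 5 (0.401, 0.582 and 0.966 CPM). Every treated library lay below every DMSO library, and the input had 12 counts there. The log2 fold change was −3.11 ± 0.62 (SE, adjusted p = 0.00681) in osimertinib DTP and −3.44 ± 0.65 (adjusted p = 0.00284) in the combination.

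The next region, 24955344 to 24955845, nearest of the 7 to P1, had 6.62, 7.02 and 4.33 CPM in DMSO, 0.574, 1.11 and 0.906 in osimertinib DTP, then 0.301, 0.814 and 1.35 in the combination. The treated libraries again lay below every DMSO library, while the 2 treated groups overlapped. It fell by 2.79 ± 0.65 on the log2 scale (SE, adjusted p = 0.0132) in osimertinib DTP and by 2.92 ± 0.67 (adjusted p = 0.00751) in the combination. The other 5 regions, 14174 to 17009 bp from the start, had 2.11 to 12.2 CPM in DMSO. Of these, 3 were called in the combination alone. The one at 24948105 to 24948606 changed by −2.96 ± 0.74 (SE, adjusted p = 0.0113), the one at 24947474 to 24947975 by −2.90 ± 0.89 (adjusted p = 0.0319) and the one at 24948797 to 24949298 by −1.90 ± 0.63 (adjusted p = 0.0441). In osimertinib DTP the same 3 had log2 values of −1.91, −2.17 and −1.51 with adjusted p of 0.0755, 0.0973 and 0.121. The calls at 24954695 and 24955344 held in the combination whichever library was left out. In osimertinib DTP the first was lost without DMSO 2 or osimertinib DTP 3 (adjusted p = 0.0623 and 0.053) and the second without DMSO 2 or any osimertinib DTP library (0.0525 to 0.0891). The call at 24948105 was lost without DMSO 1 (0.0916). The call at 24947474 was lost without any DMSO library, osimertinib DTP 2 or combination 1 or 2 (0.0516 to 0.114) and with the replicate block (0.0534). The call at 24948797 was lost without any DMSO library, osimertinib DTP 1 or 3 or combination 1 or 2 (0.0618 to 0.184). The calls at 24947474 and 24948797 were also lost with a loess offset (0.0619 and 0.0813) and with only the libraries of both groups in the fit (0.0709 and 0.093).

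At the strongest RUNX3 region, 24949559 to 24950060, the groups overlapped. DMSO had 12.2, 11.7 and 7.74 CPM, osimertinib DTP 3.54, 11.3 and 3.22, and the combination 1.60, 3.49 and 8.89. The high value of each treated group came from osimertinib DTP library 2 and combination library 3, the libraries with the large promoter shares. Its log2 fold change was −0.82 ± 0.66 (SE, adjusted p = 0.483) and −1.21 ± 0.67 (adjusted p = 0.231). Leaving out both of these libraries gave −1.61 (adjusted p = 0.0092) and −1.97 (adjusted p = 0.00142). This was also the region where peaks lasted. The authors' peak lists covered 7 of 7 RUNX3 regions in each DMSO library, but 1 of 7 in each osimertinib DTP library and 0, 1 and 2 in the combination libraries. The region had a peak in 5 of the 6 treated libraries.

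**Figure D2:**
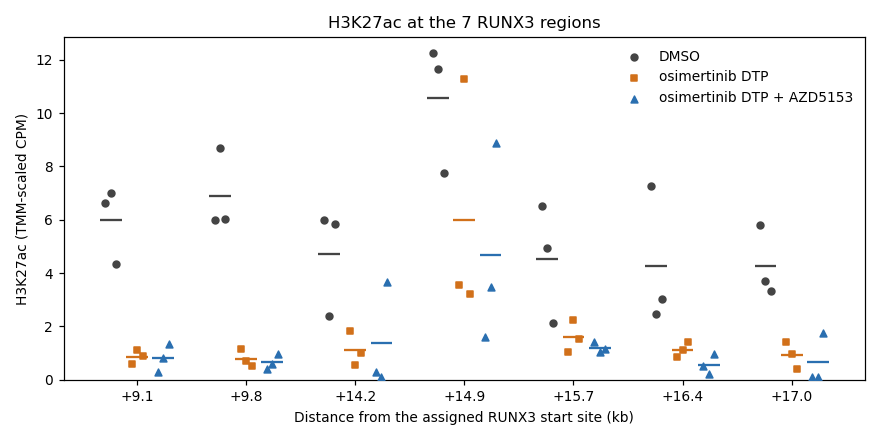
H3K27ac at the 7 RUNX3 regions in TMM-scaled CPM (vertical axis), placed by distance from the assigned start in kb; points are libraries and bars are means of 3. The treated libraries lie below the DMSO libraries at most positions, while the region at 14.9 kb has a treated library at 11.3 CPM.

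Summed over its 7 regions, RUNX3 had 76.3, 47.1 and 49.7 CPM in DMSO, 16.04, 15.1 and 15.0 in osimertinib DTP, then 6.25, 8.04 and 18.4 in the combination; these sums are scaled to the counts in annotated regions, a different scale from the single regions. The groups treated with drug lay wholly below DMSO. The log2 fold change of the sum was −1.91 ± 0.42 (SE, adjusted p = 0.025 over 21677 gene sums) in osimertinib DTP and −2.41 ± 0.43 (adjusted p = 0.0074) in the combination. Over all gene sums 5.06% and 8.88% were called lower. In osimertinib DTP the call was lost with replicate number as a block (log2 fold change −1.90, adjusted p = 0.0671) and when any single DMSO or osimertinib DTP library was left out (adjusted p of 0.0732 to 0.0896). In the combination the largest adjusted p over the 9 fits with a library left out was 0.0314. All libraries lay below DMSO at 5 of 7 RUNX3 regions in each treated group. This held for 18.9% of all regions tested in osimertinib DTP and 19% in the combination, promoter regions included. The share among annotated distal regions alone, which were called lower more often, was not computed.

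The RUNX1 regions that were called all fell, and the sums of the gene were not called. Its 6 promoter regions were at P1 (35048109 to 35049983) and P2 (34886726 to 34890219). Their summed level was 185, 179 and 170 CPM in DMSO, 181, 210 and 171 in osimertinib DTP, then 236, 237 and 351 in the combination. All 3 combination libraries lay above the others, and the log2 fold change against DMSO was 0.63 ± 0.26 (SE, adjusted p = 0.135). DESeq2 gave 0.62 with an adjusted p of 0.0459. Without combination library 3, edgeR gave 0.44 (adjusted p = 0.166). The 28 distal regions summed to 386, 494 and 456 CPM in DMSO, 303, 205 and 413 in osimertinib DTP, then 458, 537 and 170 in the combination. The osimertinib DTP change was −0.54 ± 0.43 (SE, adjusted p = 0.522), and the combination change −0.20 ± 0.43 (adjusted p = 0.804) rested on library 3, without which it was 0.18.

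The RUNX1 falls lay at 3 places, all distal. At 34967777 to 34968278, an intronic region 77987 bp upstream of its assigned start and between P1 and P2, DMSO had 57, 47 and 30 counts (5.17, 4.85 and 3.02 CPM). Osimertinib DTP had 12, 6 and 11 counts (1.15, 0.835 and 1.11 CPM) and the combination 8, 6 and 3 (0.802, 0.698 and 0.580 CPM). The 3 groups did not overlap, with the combination lowest, and the input had 14 counts. The treated groups were close, with 0.802 CPM in the combination against 0.835 in osimertinib DTP at their nearest libraries. Between these 2 groups the log2 fold change was −0.55 ± 0.64 (SE, unadjusted p = 0.402 in edgeR's test), which was not called. The share of all regions with 3 groups apart in this way was not computed. The log2 fold change was −2.05 ± 0.60 (SE, adjusted p = 0.0356) in osimertinib DTP and −2.61 ± 0.63 (adjusted p = 0.00971) in the combination. In osimertinib DTP the call was lost without any 1 of the DMSO or osimertinib DTP libraries (adjusted p of 0.096 to 0.169), and in the combination without DMSO 2 (0.0558).

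An intronic cluster of 3 regions from 34982737 to 34984371 lay 64899 to 66032 bp downstream of the assigned start. Its middle region, 34983284 to 34983785, had 10.3, 14.5 and 7.34 CPM in DMSO, 3.35, 2.51 and 3.93 in osimertinib DTP, then 3.71, 3.61 and 0.773 in the combination. It fell by 1.95 ± 0.61 on the log2 scale (SE, adjusted p = 0.0342) in the combination. The region at 34983870 to 34984371 fell by 1.96 ± 0.62 (SE, adjusted p = 0.0344) there. In osimertinib DTP their log2 values of −1.70 and −1.45 had adjusted p of 0.0760 and 0.128, with all libraries below DMSO. The last place was a region annotated as exonic, 88982 bp upstream of the assigned start, at 35138326 to 35138827, with 9.34, 22.5 and 15.8 CPM in DMSO, 2.96, 4.87 and 6.55 in osimertinib DTP, then 4.11, 6.05 and 1.55 in the combination. It changed by −2.0 ± 0.61 (SE, adjusted p = 0.0315) in the combination and by −1.73 ± 0.61 (adjusted p = 0.0749) in osimertinib DTP. These 3 calls in the combination were lost without DMSO 2 (adjusted p of 0.123 to 0.155) or DMSO 3 (0.0707 to 0.0954). The first was also lost without DMSO 1, osimertinib DTP 1 or 3 or combination 1, the second without DMSO 1, osimertinib DTP 1 or 3 or combination 2, and the last without combination 1 (0.0541 to 0.098 over these). With only the libraries of both groups in the fit all 3 were lost (0.106, 0.103 and 0.0867). Beside it, the strongest distal RUNX1 region (35136480 to 35136981) had 23.5, 42.6 and 30.8 CPM in DMSO, 20.8, 41.8 and 35.5 in osimertinib DTP, then 38.0, 53.6 and 26.1 in the combination. Its groups overlapped, with log2 values of 0.02 ± 0.51 and 0.28 ± 0.51 (SE, adjusted p = 0.99 and 0.75). RefSeq bounds RUNX1 at 34787801 to 35049302. This region and that at 35138326 to 35138827 therefore lie outside the RefSeq gene.

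The 3 regions downstream of P2 from 34807105 to 34809026 also had every osimertinib DTP library below every DMSO library. The middle of these had 25.9, 41.1 and 27.1 CPM in DMSO, 15.0, 20.2 and 8.76 in osimertinib DTP, then 16.7, 23.4 and 13.3 in the combination. None was called, with adjusted p of 0.0816 to 0.194 in osimertinib DTP. In DESeq2 2 of the 3 passed in osimertinib DTP (adjusted p = 0.0127 and 0.0112). RUNX1 had 12 of its 28 distal regions wholly below DMSO in osimertinib DTP, beside 18.9% of all regions tested, promoter regions included. As for RUNX3, the share among annotated distal regions alone was not computed. Of the 28 distal RUNX1 regions, 1 was called lower.

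At an intronic pair of regions from 34863712 to 34864804 the combination lay apart from both other groups. At the first region DMSO had 2.36, 3.20 and 3.22 CPM, osimertinib DTP 2.58, 3.34 and 2.52 and the combination 7.82, 7.21 and 5.41. At the second they were 10.3, 21.8 and 15.8, 12.4, 20.04 and 12.1, and 28.4, 37.2 and 40.4. All 3 combination libraries, library 3 included, lay above the 6 others in both. The share of all regions with such a separation was not computed. The log2 values relative to DMSO were 1.22 ± 0.52 and 1.15 ± 0.52 (SE), with adjusted p of 0.113 and 0.132, so neither passed. The first passed without combination library 3 (adjusted p = 0.0247) and in DESeq2 (adjusted p = 0.0498), where the second had 0.0592.

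Those were also the only 2 of the 58 regions with an unadjusted p under 0.05 between the combination and osimertinib DTP, with log2 values of 1.28 and 1.25. In that comparison 0 of 58 members were called by edgeR's adjusted p and 0 by DESeq2; over all regions edgeR called 0% (0 regions, with 7013 at an unadjusted p under 0.05), and 0% of gene sums. Without osimertinib DTP library 2 and combination library 3, 2 members were called higher, the second of the pair (log2 fold change 1.47, adjusted p = 0.042) and its neighbour at 34865668 to 34866169 (1.57, adjusted p = 0.0443).

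At the P1 region 660 bp inside the gene (35048109 to 35048610), the strongest RUNX1 promoter region, levels were 31.3, 47.0 and 33.4 CPM in DMSO, 29.0, 45.9 and 42.2 in osimertinib DTP, then 47.0, 64.2 and 18.9 in the combination. The log2 values of 0.07 ± 0.52 and 0.22 ± 0.52 (SE) had adjusted p of 0.958 and 0.814. At the P2 region 34889718 to 34890219, DMSO had 15.2, 21.1 and 14.1 CPM, while osimertinib DTP library 2 had 65.8 against 15.0 and 8.36 in the others, and combination library 3 had 104.6 against 22.6 and 22.1. These libraries were thus the high ones at P2, and combination library 3 was the lowest of all 9 at P1, with 0.580 CPM at the region 138 bp before the start (35049482 to 35049983) against 4.43 to 13.8 in the other 8.

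**Figure D3:**
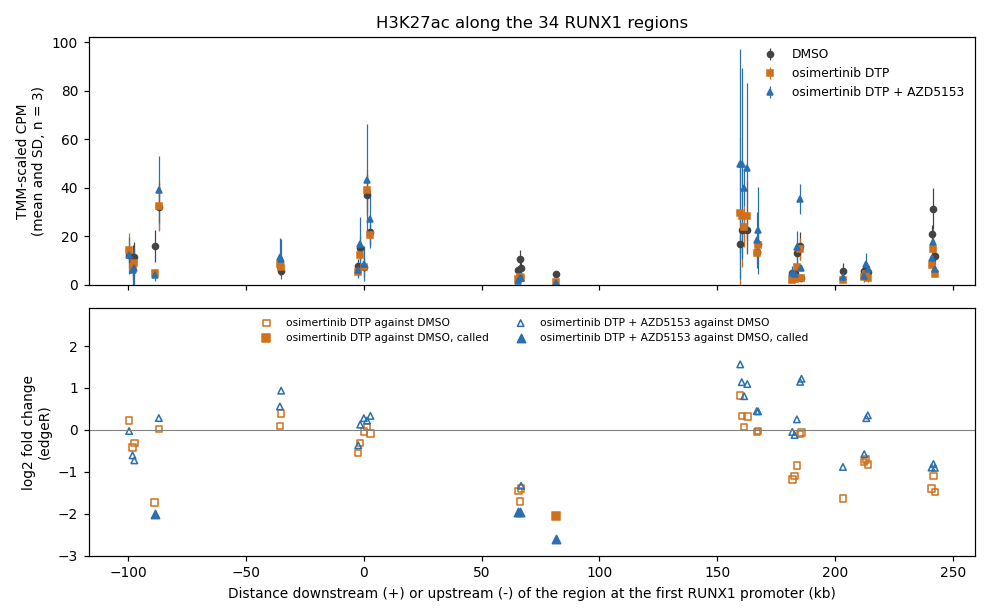
RUNX1 regions by distance in kb from the region at its first promoter, P1; the upper panel gives the mean TMM-scaled CPM with its SD (n = 3, bars cut at 0) and the lower panel the fitted log2 fold change against DMSO, filled where called. The called falls sit at 3 places away from both promoters, and the long bars of the combination at P2 come from library 3, which reached 104.6 CPM.

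RUNX2 had no called region. Its promoter regions at P1 were weak and those at P2 strong. At the P1 region that overlaps most of the sequence shown above, 45328140 to 45328641, DMSO had 5.80, 9.91 and 5.13 CPM, osimertinib DTP 4.97, 6.40 and 4.83 and the combination 11.02, 9.08 and 1.55. The groups overlapped, and combination library 3 was lowest. At the strongest P2 region, 45423315 to 45423816, DMSO had 27.7, 22.5 and 19.5 CPM, osimertinib DTP 28.9, 62.5 and 11.9 and the combination 26.1, 20.4 and 120.0. The log2 values of 0.57 ± 0.68 and 1.25 ± 0.69 (SE, adjusted p = 0.669 and 0.223) rested on osimertinib DTP library 2 and combination library 3: without the one and the other they were −0.14 and −0.01.

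Of the 9 distal RUNX2 regions, 8 form a stretch 14306 to 24226 bp downstream of the P2 start, in introns and at an alternative 3′ UTR. The strongest, 45445970 to 45446471, had 18.8, 28.1 and 15.9 CPM in DMSO, 13.9, 14.5 and 19.2 in osimertinib DTP, then 30.1, 34.4 and 3.87 in the combination. Combination libraries 1 and 2 lay above all others and library 3 below all others. The log2 values were −0.40 ± 0.64 and 0.13 ± 0.63 (SE, adjusted p = 0.764 and 0.916). At the first region of the stretch, 45436883 to 45437384, DMSO had 111, 78 and 66 counts, osimertinib DTP 33, 29 and 35, and the combination 83, 48 and 0. All osimertinib DTP libraries lay below DMSO there (log2 fold change −1.21 ± 0.80, SE, adjusted p = 0.374). Leaving out both outlying libraries gave −1.28 with an adjusted p of 0.0299. The peak lists covered 9 of 9 distal RUNX2 regions in 7 libraries, 7 in osimertinib DTP library 2 and 3 in combination library 3.

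The RUNX2 promoter sum was 129, 95.7 and 94.8 CPM in DMSO, 127, 137 and 77.1 in osimertinib DTP, then 132, 104 and 247 in the combination (log2 values 0.10 ± 0.37 and 0.60 ± 0.37, SE, adjusted p = 0.918 and 0.32). The distal sum was 129, 99.9 and 94.2 CPM in DMSO, 95.1, 45.5 and 116 in osimertinib DTP, then 123, 110 and 25.5 in the combination (−0.33 ± 0.54 and −0.32 ± 0.54, SE, adjusted p = 0.774 and 0.734). With 1 library left out, the log2 value of the distal sum in osimertinib DTP ran from −0.62 to −0.02. In each treated group the same library was highest at promoters and lowest at distal regions.

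**Figure D4:**
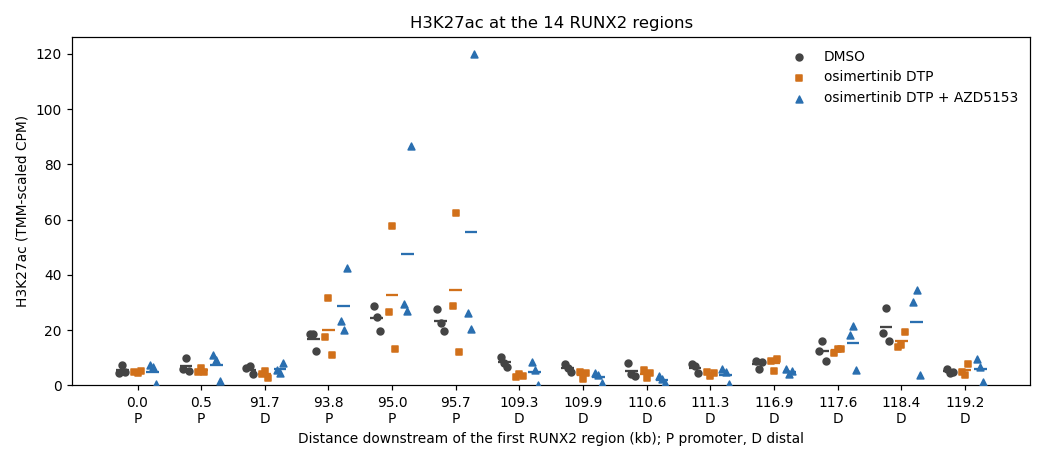
H3K27ac at the 14 RUNX2 regions in TMM-scaled CPM (vertical axis), in order along the gene with their distance in kb from the first; points are libraries and bars means of 3. At the strongest promoter region combination library 3 stands at 120.0 CPM, while it is the lowest library at 7 of the last 8 regions.

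CBFB had 2 promoter regions and 1 intronic region, with no call. Both promoter regions lay on an annotated start. The stronger one (67029369 to 67029870) had 22.2, 23.8 and 21.5 CPM in DMSO, 16.4, 68.9 and 13.8 in osimertinib DTP, then 15.1, 24.0 and 79.4 in the combination. Apart from osimertinib DTP library 2 and combination library 3, 3 of the 4 treated libraries lay below DMSO. The log2 values of 0.55 ± 0.68 and 0.81 ± 0.68 (SE, adjusted p = 0.678 and 0.45) became −0.55 and −0.12 without both. The other promoter region (67028539 to 67029040) had 17.8, 29.0 and 19.8 CPM in DMSO, 13.1, 30.9 and 12.1 in osimertinib DTP, then 19.9, 17.1 and 25.5 in the combination, with overlapping groups.

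The promoter sum of CBFB was 60.5, 60.7 and 63.4 CPM in DMSO, 45.3, 84.0 and 43.3 in osimertinib DTP, then 47.6, 51.6 and 103 in the combination. Its log2 values were −0.10 ± 0.37 and 0.13 ± 0.37 (SE, adjusted p = 0.918 and 0.853). The intronic region 19740 bp inside the gene (67056167 to 67056668) had 4.63, 8.57 and 6.03 CPM in DMSO, 4.78, 3.62 and 4.73 in osimertinib DTP, then 4.01, 3.14 and 2.32 in the combination. All combination libraries lay below DMSO, a change of −1.01 ± 0.53 on the log2 scale (SE, adjusted p = 0.207).

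The balance between distal and promoter signal within a library does not depend on its depth. For RUNX1 the log2 ratio of distal to promoter counts was 1.06, 1.47 and 1.42 in DMSO, 0.74, −0.04 and 1.27 in osimertinib DTP, then 0.95, 1.18 and −1.05 in the combination. For RUNX2 it was 0.00, 0.06 and −0.01, then −0.42, −1.59 and 0.59, then −0.10, 0.08 and −3.28. For CBFB it was −3.11, −2.62 and −2.78, then −2.62, −4.79 and −2.45, then −3.13, −3.71 and −5.50. The DMSO libraries agreed closely with one another, while in each treated group a single library was far lower, and the same one for all 3 genes. Over all annotated regions the ratio in those libraries was −0.57 and −1.0, against 0.23 to 0.56 in the other 7. None of the 9 differences passed an exact two-sided permutation test over libraries. The exact p-values were 0.1 to 0.9, 0.1 being the smallest that 3 libraries against 3 allow, and the adjusted p-values 0.6 to 0.9. The 0.1 was the fall of CBFB in the combination, by 1.28 on average.

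**Figure D5:**
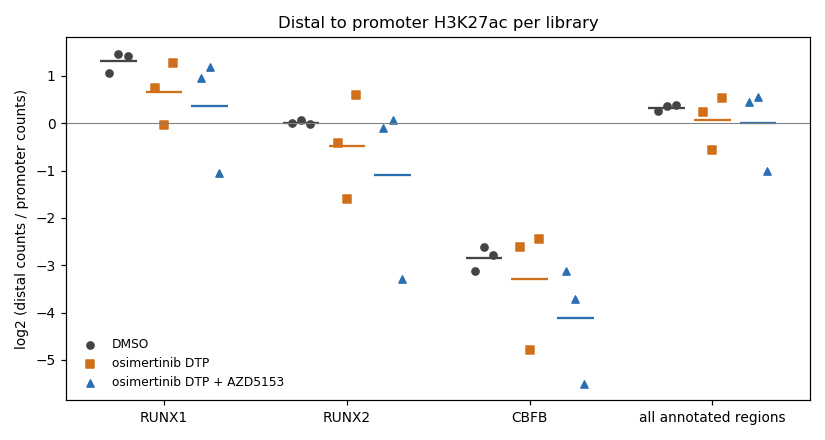
Log2 ratio of distal to promoter counts (vertical axis) in each library for the 3 genes with promoter regions and for all annotated regions; points are libraries and bars are means of 3. In both treated groups 1 library sits far below the others, down to −5.50 for CBFB, while the DMSO libraries stay together.

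The genes whose signal summed over all their regions was most like that of each RUNX gene were picked by Pearson's r over the 9 libraries, among 7654 genes; the points share libraries and their depth scaling. For RUNX3 they were IQSEC3 (r = 0.969), COL7A1 (0.969) and ST6GALNAC4 (0.968). COL7A1, the collagen of anchoring fibrils, had means of 137, 68.4 and 56.2 CPM in DMSO, osimertinib DTP and the combination. For RUNX1 they were LINC02595 (0.982), HS1BP3-IT1 (0.963) and LINC00501 (0.963), and for RUNX2 VPS16 (0.977), RPSA (0.976) and LSP1 (0.970). For CBFB they were XPO4 (0.997), SYPL1 (0.994) and MXD1 (0.993). The CBFB total was 102.9 CPM in osimertinib DTP library 2 and 105.4 in combination library 3, against 30.3 to 61.0 in the others. The r values were not computed without osimertinib DTP library 2. Without combination library 3, COL7A1 was still among the 3 genes of RUNX3, LINC02595 of RUNX1, RPSA of RUNX2 and XPO4 and SYPL1 of CBFB.

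Among 14 partners and co-regulators of RUNX proteins, 10 had promoter regions and 13 distal ones. In each comparison with DMSO, 1 promoter sum rose and 0 fell, and 1 distal sum rose and 2 fell. Over all gene sums 4.13% were called higher in osimertinib DTP and 7% in the combination, beside the 5.06% and 8.88% called lower. The riser was TLE4, a Groucho-type co-repressor that binds the carboxyl end of RUNX proteins. Its promoter sum had means of 3.83, 28.1 and 34.1 CPM in DMSO, osimertinib DTP and the combination, with log2 fold changes of 2.87 ± 0.51 (SE, adjusted p = 0.0132) and 3.15 ± 0.51 (adjusted p = 0.00571). Its distal sum rose by 2.97 ± 0.79 (SE, adjusted p = 0.0468) and 2.74 ± 0.79 (adjusted p = 0.0429). TLE1 and TLE3 promoters were not called, with 25.96, 52.4 and 57.0 CPM for TLE1 and 68.6, 51.5 and 70.2 for TLE3.

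Among the distal sums that fell was that of WWTR1, the gene of the co-activator TAZ. It had 364, 108 and 96.6 CPM, with log2 fold changes of −1.75 ± 0.48 (SE, adjusted p = 0.0492) and −1.91 ± 0.48 (adjusted p = 0.0254). The median log2 fold change of the 13 distal partner sums was −0.50 and −0.53, beside −0.06 and −0.12 over all 9382 distal sums, and that of the 10 promoter sums was 0.42 and 0.69, beside 0.15 and 0.19 over all 12295. Without combination library 3 the TLE4 and WWTR1 sums were still called. The counts then were 2 higher and 0 lower promoter sums and 2 higher and 3 lower distal sums in osimertinib DTP, and 1 and 1 promoter sums and 3 and 3 distal sums in the combination.

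Of 13 known target genes of RUNX proteins, 6 had promoter regions and 7 distal ones. No target promoter sum was called in any of the 3 comparisons. The distal region of ALPL, alkaline phosphatase of bone, had mean levels of 1.34, 16.6 and 15.4 CPM in the 3 groups and rose by 3.62 ± 0.57 (SE, adjusted p = 0.011) and 3.52 ± 0.57 (adjusted p = 0.00557). The distal sum of CDKN1A, the inhibitor p21 of the cell cycle, was 21.7, 16.8 and 8.97 CPM and fell in the combination by 1.27 ± 0.30 (SE, adjusted p = 0.0196). The bone genes SPP1, IBSP, COL10A1 and SP7 and the blood gene SPI1 had no annotated region. The median of the 7 distal target sums was −0.07 and 0.03, and that of the 6 promoter sums 0.18 and 0.01. Without combination library 3, 1 target promoter sum rose and 1 fell in osimertinib DTP and 1 fell in the combination, while 2 distal sums fell there.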

How the data were processed

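H3K27ac ChIP-seq libraries of H1975 were sequenced as single-end reads. The submitters' processing notes name BWA 0.7.17, MACS2 2.2.6, featureCounts 2.0.0, ChIPseeker 1.29.1 and hg38. The deposited counts per region were whole reads, not normalized, for 9 libraries and the input, and an annotated table held a part of these regions (67387 of 67387 with equal counts) with the nearest gene. The authors' peak lists per library gave fold enrichment and −log10 p and q values.

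The counts of all 169637 regions were fitted with edgeR 4.0.16 in R 4.3.3 (filterByExpr with a minimum count of 10, TMM, quasi-likelihood test with robust estimation, 1 mean per group over 9 libraries, Benjamini-Hochberg, threshold 0.05). CPM are TMM-scaled. SE is the log2 fold change divided by the root of F. Counts were also summed per gene and class. A member counted as having a peak where a peak overlapped it. Alternatives were DESeq2 1.42.0, a loess offset (limma 3.58.1), other filters, thresholds and libraries, and a replicate block. Leaving out osimertinib DTP 2 and combination 3 together was chosen after seeing the data. The 12 ratio tests planned became 9 because RUNX3 had no promoter region. On simulated counts for osimertinib DTP against DMSO (153656 regions), 1% of 100 regions changed 4-fold and 8% of 100 changed 8-fold were called. For 21677 gene sums these were 52% and 83%. No other rows were changed there, while the fit to the data called 8814 regions higher and 8107 lower. The simulated shares therefore do not measure the power of the fit to the data. The members and gene lists were chosen with earlier results of these data known. One gene of these lists enters their counts and medians and is not reported here by name. Regions described singly were, for each gene, the strongest promoter and distal region, the up to 5 largest called changes per direction and the region nearest to each start; others named were chosen after their values were seen.

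Libraries of the same number in DMSO and osimertinib DTP deviated together (r = 0.334, 0.355 and 0.324), so these were treated as pairs in the block. The block also paired the combination libraries by number, although in the other comparisons at least 1 pair was below 0.1. For the combination the block therefore sets a pairing that the data do not show throughout. The pairing of DMSO with osimertinib DTP is seen in the data, not stated by the labels. The precision of a value is limited by its count, which was 0 to 621 per member region and library.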

Additional observations from a re-analysis of the deposited data

Results flagged for a closer look

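Of 53 regions within the span of the RUNX2 transcripts named in the annotated table that this table left out, 50 were tested. In osimertinib DTP 1 rose and 2 fell, where 5.58% of all regions were called higher and 5.13% lower, and in the combination 2 rose and 2 fell, beside 9.05% and 9.01%. These regions were in the fit over all regions but not among the members. The span runs to 45663872, while RefSeq ends RUNX2 at 45551082. The regions below at 45609284 and 45614596 therefore lie past the RefSeq end of the gene. The rises are given because they stand above the control group. At chr6:45609284-45609785 the DMSO libraries had 28, 28 and 23 counts, the osimertinib DTP libraries 129, 92 and 88, and the combination libraries 97, 122 and 16. The fitted log2 fold change was 2.13 (2.128, adjusted p = 0.0307) in osimertinib DTP and 1.81 (1.807, adjusted p = 0.0425) in the combination. All osimertinib DTP libraries lay above DMSO, and combination library 3, scaled to its depth, gave 3.09 CPM against 2.31 to 2.89 in DMSO. At chr6:45519935-45520436 the DMSO libraries had 2, 0 and 1 counts and the combination libraries 25, 26 and 12, with osimertinib DTP at 5, 8 and 7. The fitted log2 fold change of 4.58 (4.578, adjusted p = 0.00479) depends on the prior count, since DMSO held 3 counts in all; the depth-scaled ratio of the sums was 27.1 (exact 95% counting interval 8.84 to 135). The falls were larger than the rise at the first region. At chr6:45614596-45615097 DMSO had 19, 45 and 27 counts, osimertinib DTP 3, 1 and 2 and the combination 5, 3 and 0, with log2 fold changes of −3.74 (adjusted p = 0.0166) and −3.22 (adjusted p = 0.0193). At chr6:45543061-45543562 the counts were 23, 35 and 31, then 4, 2 and 8, then 5, 3 and 1, with −2.53 (adjusted p = 0.04) and −2.97 (adjusted p = 0.0166).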

How the results depend on the processing

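With 3 libraries a group, and 2 libraries that stand apart, the counts of called members moved with the fit, and in the combination so did their direction; the cause was not tested. Of the 58 regions, 3 were called in osimertinib DTP against DMSO. That count was 1 at an adjusted p under 0.01, 6 with a loess offset, 5 over annotated regions alone, 14 with only the libraries of both groups, 11 in DESeq2 and 17 without osimertinib DTP 2 and combination 3 together. Against DMSO the combination count of 9 became 3 at the stricter threshold, 4 (only the libraries of both groups) and 17 without both, of which 6 were higher and 11 lower. It was 8 with a loess offset, 10 over annotated regions alone and 10 in DESeq2, of which 1 was higher in each. Against osimertinib DTP the count of 0 became 2 when both libraries were left out. Leaving out 1 library gave 0 to 15 (0 without DMSO 2 or osimertinib DTP 3, 15 without combination 3), 0 to 0 and 3 to 13 (3 without DMSO 2, 13 without combination 3). With replicate block, paired by number, the region counts were 3, 0 and 8, the lost call being that at RUNX3 24947474 (adjusted p = 0.0534). With library sizes alone RUNX1 34967777 lost its call in osimertinib DTP (0.0583). Every call was kept in the fits without a filter on low counts. For gene sums the count of 1 in osimertinib DTP became 0 at the stricter threshold, 0 with the block, 2 without both libraries and 0 to 1 with 1 library left out. In the combination it became 2 in DESeq2 and 3 without both, and stayed 1 to 1 with 1 library left out.

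Directions reversed only at values not called in the analysis above. With plain library sizes, RUNX1 in osimertinib DTP was −0.01 at its strongest promoter region and −0.07 at its strongest distal region, and the strongest RUNX2 distal region in the combination was −0.03, as with the replicate block (−0.03). With a loess offset these were −0.11, −0.17 and −0.07, and the RUNX1 regions in the combination −0.12 and −0.05. In DESeq2 the RUNX1 regions in osimertinib DTP were −0.06 and −0.11. Without both outlying libraries they were −0.04 and −0.18, and the strongest RUNX2 promoter region was −0.16. The stronger CBFB promoter region was then −0.55 and, in the combination, −0.12. Sums then were −0.02 (RUNX1 promoter) and −0.07 (RUNX2 promoter) in osimertinib DTP, and 0.17 (RUNX1 distal), 0.12 (RUNX2 distal) and −0.30 (CBFB promoter) in the combination. With 1 library left out, the differences in the distal to promoter ratio ran, for the combination against osimertinib DTP, from −0.70 to 0.41 (RUNX1) and −1.21 to 0.46 (RUNX2), and in osimertinib DTP against DMSO from −1.02 to 0.07 (RUNX2) and −0.87 to 0.30 (CBFB). In the same fits the strongest RUNX1 promoter and distal regions ran from −0.05 to 0.33 and −0.18 to 0.34 in osimertinib DTP. In the combination they ran from −0.17 to 0.57 and −0.02 to 0.54. The strongest RUNX2 promoter region ran from −0.14 to 1.06 in osimertinib DTP and −0.01 to 1.62 in the combination. The stronger CBFB promoter region ran from −0.52 to 1.01 and −0.21 to 1.17. The strongest RUNX2 distal region ran from −0.28 to 0.62 in the combination. The RUNX2 promoter sum ran from −0.05 to 0.31 and the CBFB promoter sum from −0.46 to 0.07 in osimertinib DTP, and the RUNX1 distal, RUNX2 distal and CBFB promoter sums from −0.5 to 0.18, −0.67 to 0.13 and −0.29 to 0.33 in the combination. Depth limits the weak regions: at the RUNX3 region with the largest fall the treated libraries held 4 to 12 counts each.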

Other observations

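Regions left out of the annotated table also lay among those of RUNX3. Of 9 within the span of its transcripts, 5 were tested. In osimertinib DTP 0 of them were called. In the combination 0 rose and 2 fell, beside 9.05% and 9.01% of all regions. At chr1:24946947-24947448, next to the intronic regions described above, DMSO had 54, 25 and 20 counts, osimertinib DTP 8, 7 and 6 and the combination 1, 0 and 6. At chr1:24951038-24951539, between the 2 intronic groups, the counts were 22, 15 and 24, then 4, 2 and 3, then 1, 0 and 2. Both were called lower in the combination (adjusted p = 0.0343 and 0.0201) and neither in osimertinib DTP (0.15 and 0.0773). Nearer to RUNX3 P1, at chr1:24959132-24959633, DMSO had 34, 26 and 29 counts, osimertinib DTP 8, 8 and 5 and the combination 2, 1 and 14. This region was not called (adjusted p = 0.186 and 0.212). Combination library 3 had 2.706 CPM there, within the 2.685 to 3.083 of DMSO. At the untested regions combination library 3 had 12 to 20 counts and the DMSO libraries 1 to 10.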
